A study of Mus musculus with 14 samples.

Results

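Genes for receptors of glutamate, GABA and glycine were examined for H3K27me3 in mouse primary hippocampal neurons with and without knockdown of the long noncoding RNA NeuID. The set comprised 40 genes, 16 for ionotropic and 7 for metabotropic glutamate receptors, 12 for GABA-A, 2 for GABA-B and 3 for glycine receptors. A peak belonged to a gene when it overlapped the gene body or the 5 kb on either side of it. Of the 23668 peaks in the table, 140 met this rule, and they lay at 24 of the 40 genes. No peak belonged to more than 1 member.

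The neurons were wild type (genotype WT) and were cultured from the hippocampi of CD1 mouse embryos of both sexes. The knockdown group received lipid nanoparticles with a gapmer against NeuID, and the control group received nanoparticles with a control gapmer. A gapmer is a short antisense oligomer whose DNA core directs cleavage of the paired RNA. By the labels, 6 libraries of each group were made with an antibody to H3K27me3, and each condition also had 1 input library. Nothing in the labels says whether the libraries of a group came from separate dissections.

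H3K27me3 is the trimethyl mark that Polycomb repressive complex 2 places on lysine 27 of histone H3, typically over silent, CpG-rich gene starts. Ionotropic glutamate receptors (AMPA, kainate and NMDA types) are cation channels that carry fast excitation, and metabotropic glutamate receptors act through G proteins. GABA-A and glycine receptors are chloride channels that carry fast inhibition, whereas GABA-B receptors are G protein coupled. Many subunits are restricted to certain brain regions or ages, so a hippocampal neuron uses some of these genes and keeps others silent.

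Each level below is the authors' log2 mean of normalized reads in a peak, given for each group and for both together (the overall mean). The mean of both groups weights control to knockdown as 6 to 5 libraries in 21925 peaks, while the labels list 6 of each. On this scale 3 corresponds to 8 normalized reads and 4 to 16, and a listed value of 0 means at most 1 read. Differences are the knockdown mean minus the control mean, in log2 units. These group means carry no SD or n. Because the single libraries were not analysed here, no difference could be set against the spread between replicates and no test was made. A peak was counted as lower or higher after knockdown when its difference reached 1 in either direction, a description read only beside the share of all peaks past the same limit.

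The strongest member peaks were of different sequence kinds, and the following 160-base stretches from within 6 of them, with a weak peak added, show this. They are written 5′ to 3′ on the strand of the receptor gene, from GRCm38 (mm10), with each CpG in capitals. The stretch for Grin1 lies just beyond the end of that gene, in a coding exon of the neighbouring Lrrc26 on the opposite strand. Those for Grm6, Grin2c, Grin2d and Grin2b lie in coding exons of the named gene, and those for Grm4 and Grik3 lie in introns.
Grm6, chr11:50851286-50851445, plus strand: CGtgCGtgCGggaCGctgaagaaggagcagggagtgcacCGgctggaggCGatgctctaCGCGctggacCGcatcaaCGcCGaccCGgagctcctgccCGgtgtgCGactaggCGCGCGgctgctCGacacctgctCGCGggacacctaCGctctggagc
Grin2c, chr11:115250225-115250384, minus strand: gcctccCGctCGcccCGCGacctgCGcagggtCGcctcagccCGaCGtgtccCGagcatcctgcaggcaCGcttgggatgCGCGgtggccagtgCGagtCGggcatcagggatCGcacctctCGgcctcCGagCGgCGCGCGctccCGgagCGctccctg
Grin2d, chr7:45833391-45833550, minus strand: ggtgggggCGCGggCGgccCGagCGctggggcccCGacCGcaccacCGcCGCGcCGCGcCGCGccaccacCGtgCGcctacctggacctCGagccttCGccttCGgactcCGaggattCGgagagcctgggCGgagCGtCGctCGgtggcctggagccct
Grin1, chr2:25290897-25291056, minus strand: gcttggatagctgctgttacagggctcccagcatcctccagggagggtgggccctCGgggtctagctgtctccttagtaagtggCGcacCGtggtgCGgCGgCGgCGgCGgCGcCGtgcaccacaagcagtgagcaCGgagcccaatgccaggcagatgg
Grm4, chr17:27428940-27429099, minus strand: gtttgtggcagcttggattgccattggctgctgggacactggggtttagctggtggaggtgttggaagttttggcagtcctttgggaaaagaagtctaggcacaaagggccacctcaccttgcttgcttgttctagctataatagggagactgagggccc
Grik3, chr4:125492291-125492450, plus strand: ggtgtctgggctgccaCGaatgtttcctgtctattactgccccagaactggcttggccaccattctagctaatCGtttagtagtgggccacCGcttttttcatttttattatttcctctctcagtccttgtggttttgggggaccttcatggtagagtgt
Grin2b, chr6:135733043-135733202, minus strand: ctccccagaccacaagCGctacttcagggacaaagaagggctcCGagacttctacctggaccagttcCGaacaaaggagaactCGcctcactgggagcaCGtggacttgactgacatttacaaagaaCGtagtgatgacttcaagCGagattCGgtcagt
The stretches held 21 CpGs in Grm6, 23 in Grin2c, 25 in Grin2d and 11 in Grin1, against 0 in Grm4 and 3 in Grik3. The weak Grin2b peak held 8 CpGs in its stretch. Each stretch is the one nearest to the peak centre that avoids untranslated exons, so it need not stand for the whole peak. Over whole peaks the density was 12.0 CpGs per 100 bp in Grin2d, 5.27 in Grin2c, 5.09 in Grin1, 4.36 in Grm6, 3.21 in Grik3 and 1.40 in Grm4. The weak Grin2b peak had 6.12, above all of these except Grin2d, whereas the Gabrb2 peak, also weak, had 0.75. Over member peaks the median density was 1.10 for means below 3, 1.72 between 3 and 4, and 2.19 at 4 and above. The median over all peaks with an overall mean of 4 or more was 3.33, so Grik3 lay near it and Grm4 below.

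To determine which receptors carried the mark, the genes were first described by the number and level of their peaks. Ionotropic glutamate receptor genes held 71 peaks at 12 of 16 genes, and metabotropic receptor genes held 44 peaks at 6 of 7. The inhibitory receptors held fewer. GABA-A genes held 8 peaks at 4 of 12 genes, GABA-B genes 8 peaks at 1 of 2, and glycine receptor genes 9 peaks at 1 of 3. For comparison, 6154 of all 21951 protein-coding genes held a peak in the same window. Exactly 1 peak was listed at 8 genes. Grik3 and Grm4 alone held 10 or more, and together they supplied 64 of the glutamate receptor peaks.

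The 16 genes without a listed peak included several main subunits of the synaptic receptors of forebrain neurons. They were the AMPA subunits Gria2 and Gria4, the kainate subunit Grik2, the NMDA subunit Grin2a and the group I metabotropic receptor Grm5. On the inhibitory side they were all 4 alpha subunit genes of the set (Gabra2, Gabra4, Gabra5 and Gabra6), Gabrb1, Gabrg1, Gabrr1, Gabrr2, Gabbr1, Glra3 and Glrb. The 4 genes of the cluster from Gabrg1 to Gabrb1 (chr5:70751047-72149037) share 1.40 Mb, and no peak was listed anywhere in that span. Absence from the list is no measurement of zero, since only called peaks appear in it.

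The outermost peak inside the 5 kb window ended 4966 bp upstream of Grik3, and the nearest one outside it lay 5138 bp from Gabbr1, with a mean of 1.38 in control and 3.77 in knockdown cultures.

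**Figure D1:**
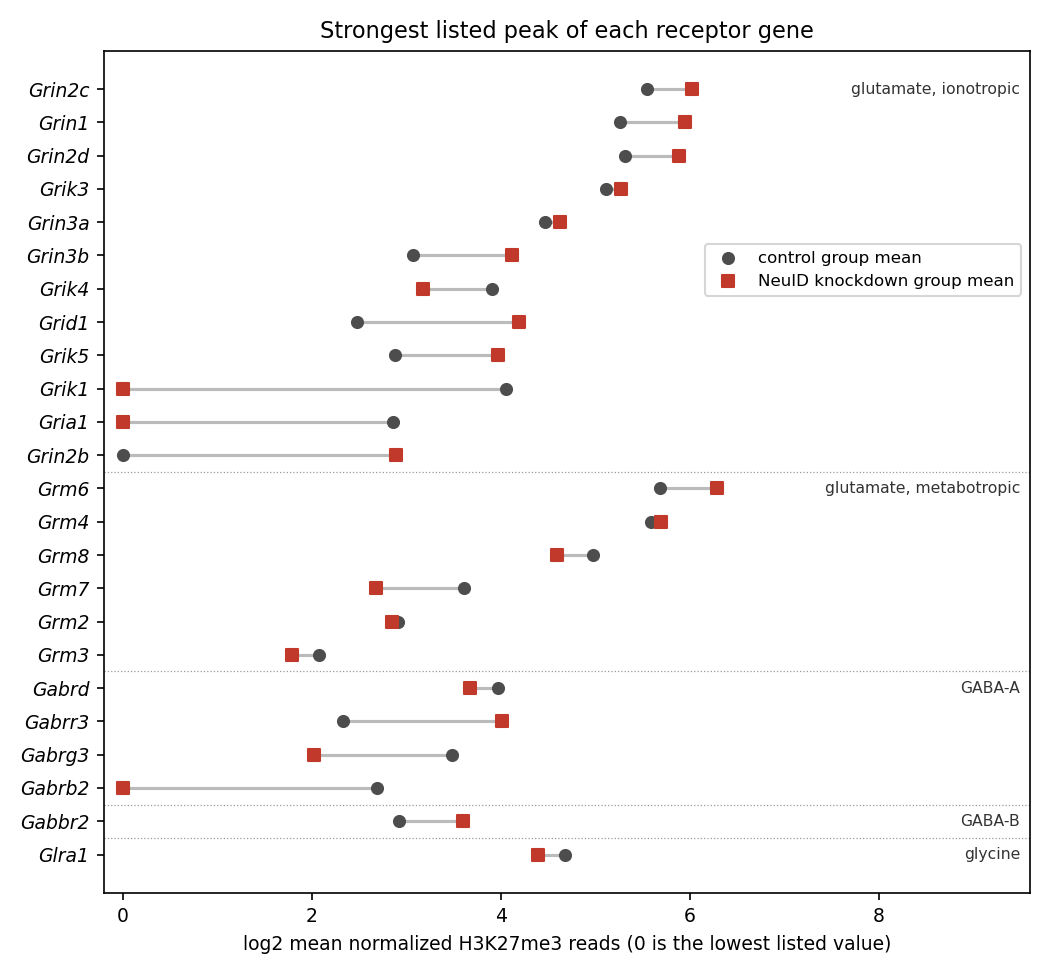
For each of the 24 receptor genes with a listed peak, the peak with the highest overall mean is drawn as the authors' log2 mean of normalized reads in the control group (circle) and the NeuID knockdown group (square), joined by a line and ordered by family. The 6 strongest (Grm6, Grin2c, Grm4, Grin1, Grin2d, Grik3) all have the higher mean in the knockdown group, with differences of 0.11 to 0.69, whereas genes lower on the scale are spread widely in both directions. No error bars are drawn because the values are group means.

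Of the NMDA receptor genes, Grin1 encodes the obligatory subunit of the receptor. Its single peak (chr2:25290377-25292970) covered the gene's last exons, the start of the antisense transcript Grin1os and part of Lrrc26, so the mark cannot be assigned to Grin1 alone. The mean was 5.26 in control and 5.95 in knockdown cultures, a difference of 0.69. Without strand information from ChIP, overlapping genes cannot be separated.

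Grin2c and Grin2d encode NMDA subunits that are prominent in cerebellar granule cells and in interneurons and subcortical regions, respectively. Each held 6 peaks, and in both genes the strongest lay over coding exons near the 3′ end. The Grin2c peak (chr11:115249295-115251323) had a mean of 5.55 in control and 6.02 in knockdown cultures. The Grin2d peak (chr7:45832621-45834325) had 5.31 and 5.88. Both knockdown means were thus about as far above the control mean, by 0.48 and 0.57. A second strong peak of Grin2c, over an untranslated exon at the other end of the gene, had 4.91 and 5.02.

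The other peaks of these 2 genes did not share a direction. Grin2c had 3 of 6 knockdown means above control and Grin2d had 2 of 6. A Grin2d intron peak at 3.42 in control cultures was listed at 0 after knockdown. Summed over their peaks, normalized reads came to 129.6 in control and 138.1 in knockdown cultures for Grin2c, and to 112.6 and 117.9 for Grin2d.

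Grin2b, the NMDA subunit that dominates in young hippocampal neurons, held only a 245 bp peak over a coding exon (chr6:135733003-135733247), listed at 0 in control and at 2.89 in knockdown cultures. The glycine-binding subunits Grin3a and Grin3b carried the mark close to their starts, over coding exons. Grin3a had means of 4.47 and 4.63 in its stronger peak, and Grin3b had 3.07 and 4.12, a difference of 1.05. Over all 17 NMDA peaks the summed reads were 320.9 in control and 373.4 in knockdown cultures, a log2 ratio of 0.22 against -0.04 for all listed peaks. These sums include the Grin1 peak (38.3 and 61.9 reads), which cannot be assigned to Grin1 alone. Of these 17 peaks 9 had the higher mean in the knockdown group and 8 in the control group, and over the 8 NMDA peaks at 4 or above the log2 ratio was 0.28.

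The kainate receptor gene Grik3, which encodes a low-affinity subunit, had more peaks than any other member. Its 36 peaks, 35 of them in introns and 1 upstream, made up 25.7% of the set. Among 6154 protein-coding genes with a peak, whose median was 1, only 9 had more. Per 100 kb of window Grik3 held 15.4 peaks, fewer than Grm4 (25.7), Grin2c (21.4) and Grm6 (15.7). The strongest Grik3 peak (chr4:125491671-125493070), in the first kilobases of the gene, was at 5.12 in control and 5.27 in knockdown cultures.

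Away from that peak, Grik3 had mostly lower knockdown means. The knockdown mean was below the control mean in 23 peaks and above it in 13, and of the 36 peaks 11 were lower and 5 higher by the limit of 1, where 20.6% and 20.4% of all listed peaks were. Of its 7 peaks whose overall mean reached 4, 6 had the lower mean in the knockdown group, with a log2 ratio of summed reads of -0.57 over the 7. Among them, the upstream peak (chr4:125484961-125485734) was at 4.67 and 3.51, and an intron peak (chr4:125549676-125550634) was at 4.51 and 3.39, both past the limit of 1. Summed over all 36 peaks, the reads were 453.4 in control and 369.2 in knockdown cultures, a log2 ratio of -0.30.

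Weak peaks of Grik3 scattered widely, so the direction did not hold along the whole gene. The intron peaks at 3.20, 3.63 and 3.15 in control cultures were listed at 0 after knockdown, and 1 was listed at 0 in control and at 3.25 in knockdown cultures. About 7 kb into the gene, neighbouring peaks had the higher knockdown mean, at 1.49 and 4.42 and at 0.71 and 4.09. The latter held the highest difference of any member peak with both groups above 0, at 3.38.

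**Figure D2:**
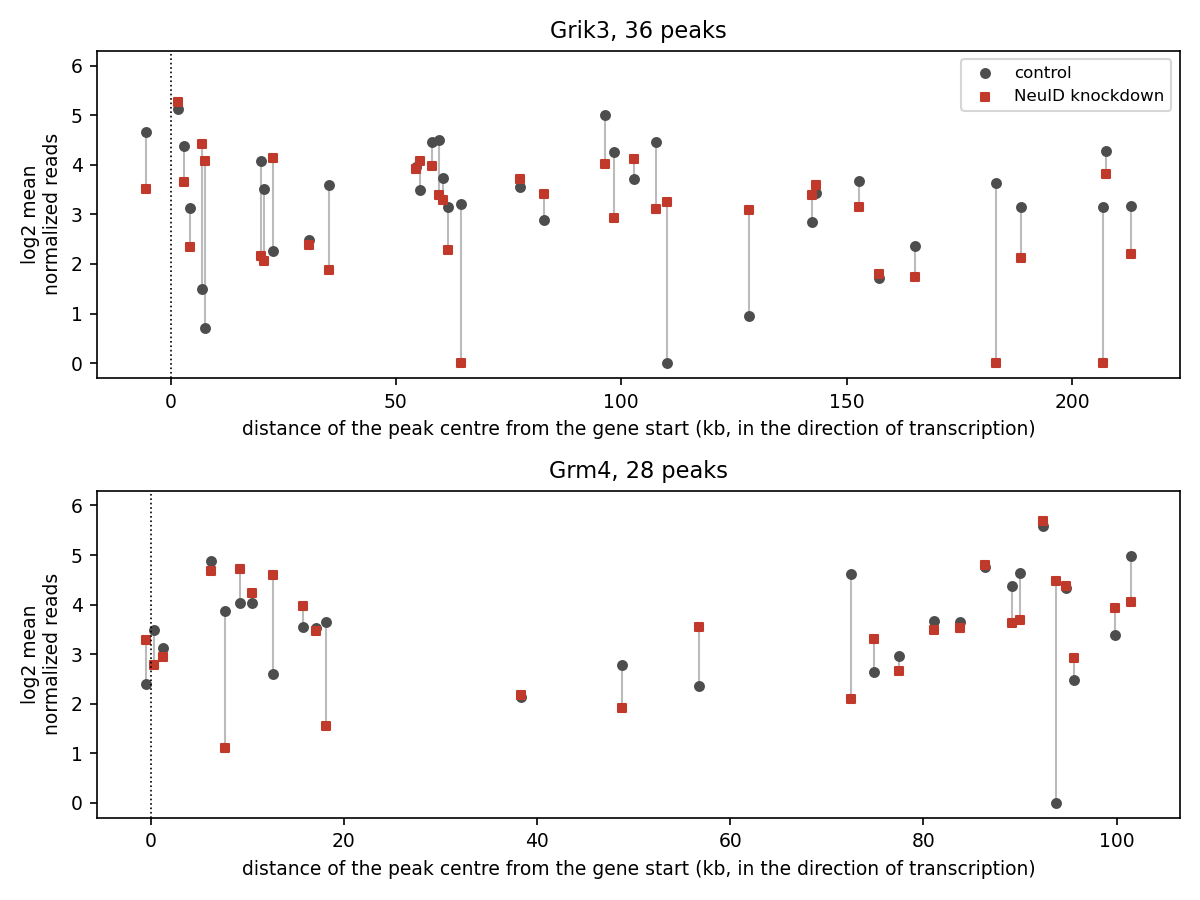
Each listed peak of Grik3 (36 peaks) and Grm4 (28 peaks) is placed by the distance of its centre from the gene start in kb, with the authors' log2 mean of normalized reads in the control (circle) and NeuID knockdown group (square) joined by a line. Along Grik3 most squares lie below their circles (23 of 36), including 6 of the 7 peaks whose overall mean is 4 or more, while along Grm4 the directions are evenly split (14 and 14).

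The other kainate genes had few and weak peaks. The strongest Grik1 peak, in an intron, was at 4.06 in control cultures and listed at 0 after knockdown, while another Grik1 intron peak was at 0.54 and 3.51. Grik4, a high-affinity subunit, had its strongest peak at 3.91 and 3.17, and a coding exon peak at 0.83 and 4.10. For the high-affinity subunit Grik5, 4 of 5 peaks were higher after knockdown by the limit of 1, as were 20.4% of all listed peaks. Of these 4 Grik5 peaks, 3 lay downstream of the gene, and 2 were listed at 0 in control cultures. Kainate peaks together had 560.4 summed reads in control and 494.0 in knockdown cultures, a log2 ratio of -0.18. Without Grik3, the 15 peaks of Grik1, Grik4 and Grik5 had 107.1 and 124.8 reads, a log2 ratio of 0.22. By gene, the ratio was -0.28 for Grik1, -0.11 for Grik4 and 1.09 for Grik5. The positive ratio without Grik3 thus came from Grik5 alone.

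AMPA and delta receptor genes were nearly free of listed peaks. Gria1, a main AMPA subunit of hippocampal pyramidal cells, had 1 intron peak at 2.85 in control cultures that was listed at 0 after knockdown. Grid1, a delta receptor that binds cerebellins, had 2 intron peaks, of which the stronger was at 2.48 and 4.20 and the weaker at 1.93 and 3.36. Both Grid1 peaks were higher after knockdown by the limit of 1, at overall means of 3.51 and 2.76. Of all listed peaks, 16.2% between 3 and 4 and 26.9% below 3 were higher by that limit.

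Group III metabotropic receptors held 42 of the 44 metabotropic peaks. Grm6, known as the receptor of retinal ON bipolar cells, had the strongest peak of the whole set, over its gene start (chr11:50850246-50852492, also overlapping Gm12660). Its mean was 5.69 in control and 6.28 in knockdown cultures. The neighbouring peak, 801 bp upstream of the gene start (chr11:50848670-50849884), had the lower mean in the knockdown group, at 5.38 in control and 3.01 in knockdown cultures. That difference of -2.37 was the largest among the 29 member peaks whose overall mean was 4 or more. The summed reads of the 4 Grm6 peaks were 121.3 and 118.8, so opposite differences at adjacent peaks left the total nearly level.

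Grm4, a presynaptic receptor, held 28 peaks (20.0% of the set), and 19 protein-coding genes with a peak had more. The strongest (chr17:27427990-27430059), in an intron near the 3′ end, was at 5.59 and 5.69. Directly beside it lay an intron peak listed at 0 in control and at 4.48 in knockdown cultures. Over an untranslated exon near the 5′ end, another Grm4 peak was at 3.88 and 1.10. Equal numbers of Grm4 peaks had the lower and the higher knockdown mean (14 each), and summed reads were 414.1 and 401.6. The limit was passed by 3 Grm4 peaks in each direction, where 20.6% and 20.4% of all listed peaks were lower and higher.

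The remaining group III receptors also act presynaptically. Grm8 had its strongest peak over an untranslated exon near the start, at 4.97 and 4.60, and the strongest of 3 Grm7 peaks was at 3.61 and 2.68. The group II receptors Grm2 and Grm3, which inhibit transmitter release, each had 1 weak peak, at 2.92 and 2.85 for Grm2 and at 2.08 and 1.79 for Grm3. Neither reached an overall mean of 3.

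Among inhibitory receptor genes, the level was highest at Glra1, the glycine receptor subunit of adult spinal cord and brainstem. A peak ending just upstream of its start (chr11:55608232-55609372) was at 4.68 in control and 4.39 in knockdown cultures. Of 9 Glra1 peaks 6 had the lower knockdown mean, and the sums were 101.5 and 87.3 normalized reads. The next peak inward, over a coding exon near the start, was at 3.29 and 4.06.

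GABA-A receptor peaks were few and weak. The strongest lay over the start of Gabrd, a subunit of extrasynaptic receptors, at 3.98 and 3.67. Gabrr3, of the rho type known from retina, had 1 upstream peak at 2.33 and 4.02. Gabrg3 had its strongest peak at 3.48 and 2.03 and another at 2.88 that was listed at 0 after knockdown, and the single Gabrb2 peak was at 2.69 in control and listed at 0 in knockdown cultures. No GABA-A peak reached an overall mean of 4.

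The GABA-B gene Gabbr2, whose product couples the receptor to G proteins, had 8 peaks that diverged widely at overall means below 4. Its gene start peak was at 1.92 and 3.87. An upstream peak was at 3.82 and 1.06, and an intron peak at 3.95 and 0.64, the lowest difference of any member peak with both groups above 0, at -3.31. The sums nevertheless differed little, with 65.8 reads in control and 62.2 in knockdown cultures.

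To compare the set with the rest of the genome, the shares of peaks past the limit were read at matched levels. Of the 140 member peaks 29 (20.7%) were lower and 26 (18.6%) were higher after knockdown, against 20.6% lower and 20.4% higher of all listed peaks. Below an overall mean of 3, 13 of 54 member peaks were lower and 13 higher (24.1% each), against 23.4% and 26.9% of all peaks. Between 3 and 4, 13 of 57 were lower and 13 higher (22.8% each), against 21.1% and 16.2%. At 4 and above, 3 of 29 (10.3%) were lower and 0 higher, against 9.12% and 5.02%. The shares of receptor peaks past the limit thus lay near those of all peaks, and in both the share fell off as the level rose.

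Peaks with a group listed at 0 were counted in the same way. The knockdown group was at 0 in 8 member peaks (5.71%, against 3.35% of all peaks) and the control group in 5 (3.57%, against 3.28%). Grik3 held 3 of the 8. All 13 had overall means below 4, and no fold can be given for them.

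Over all member peaks the median difference was -0.12, with quartiles of -0.87 and 0.64, against -0.02, -0.80 and 0.77 over all peaks. Grik3 and Grm4 supplied 64 of the 140 peaks. Without them, 76 peaks at 22 genes remained, with a median difference of 0.09, of which 15 were lower and 18 higher. Summed reads over all members came to 1763 in control and 1724 in knockdown cultures, a log2 ratio of -0.03.

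**Figure D3:**
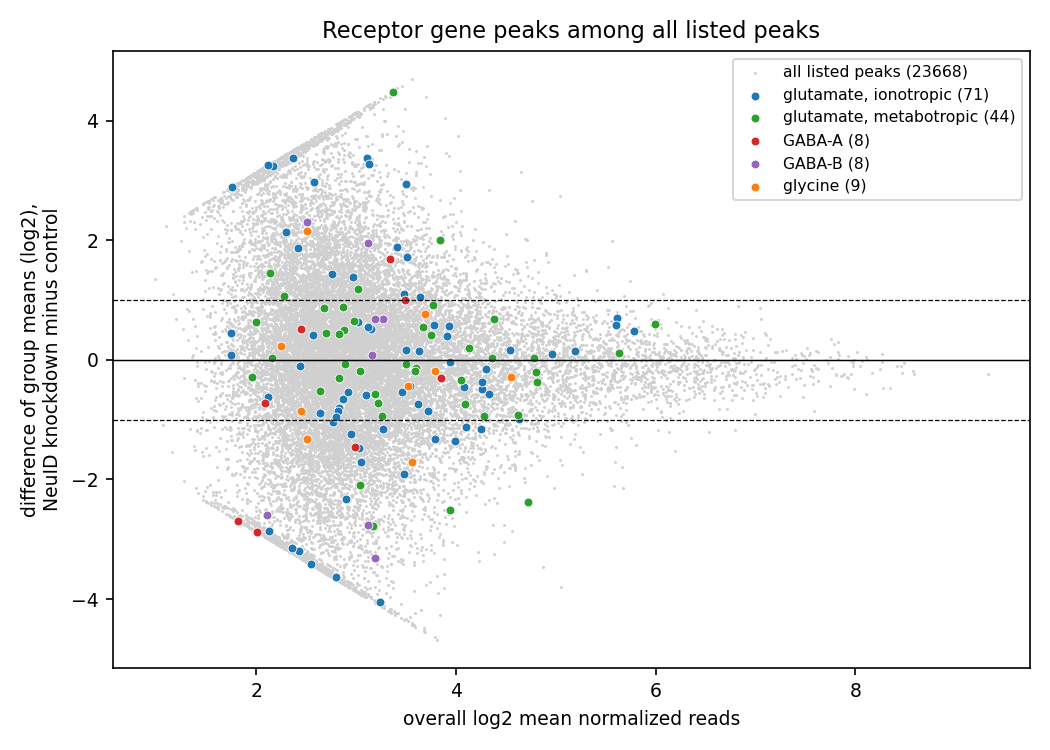
Each grey point is 1 of 23668 listed peaks and each coloured point 1 of the 140 receptor gene peaks by family, plotted as the difference of the authors' group means (log2, NeuID knockdown minus control) against the overall log2 mean of normalized reads, with dashed lines at the limit of 1. Receptor peaks spread as widely as the others at low levels and narrow at high ones, where the 6 above an overall mean of 5 lie between 0.11 and 0.69. The diagonal edges are formed by peaks with a group listed at 0.

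The 6 member peaks that reached an overall mean of 5 all had the higher mean in the knockdown group, by 0.11 to 0.69. Among all 1362 peaks of that level, 555 (40.8%) lay above 0, with quartiles of -0.40 and 0.17. They belong to 6 different genes, and with group means only it cannot be said whether their common direction exceeds the spread between cultures. Of the 29 member peaks at 4 and above, 17 had the lower knockdown mean, as did 1920 of all 3344 peaks of that level.

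The direction of the difference was also compared between neighbouring peaks. Of 69 pairs of adjacent member peaks no more than 5 kb apart, 41 (59.4%) differed in the same direction, against 4201 of 7965 (52.7%) among all peaks. In Grik3 and in Grm4 it was 14 of 23 pairs each. No test was made of these shares.

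Most listed peaks at receptor genes lay away from gene starts. Introns held 95 of the 140 peaks (67.9%), coding exons 19, untranslated exons 8, sequence upstream 8, sequence downstream 6 and gene starts 4. Of the intron peaks, 35 were in Grik3 and 18 in Grm4. The places of all listed peaks were not counted, so these shares are not a trait particular to receptor genes. Peaks within 1 kb of the start of their gene numbered 18, at genes that included Grm6, Grm8, Glra1, Grin2c, Grin3a, Grin3b, Gabrd and Gabbr2. Coding exon peaks had a median overall mean of 3.93 and 9 of 19 reached 4, whereas intron peaks had a median of 3.05 and 11 of 95 reached 4.

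The places also differed in their median CpG density. Coding exon peaks held a median of 3.10 CpGs per 100 bp, while intron, upstream and downstream peaks held 1.39, 1.26 and 1.40, and single peaks of all these places overlapped. A peak was called CpG-dense when its GC content reached 50% and its CpG count reached 0.6 of that expected from its base composition. This held for 11 member peaks (7.86%), close to 7.80% of all peaks, but among peaks at 4 or above it held for 4 of 29 (13.8%) against 26.8%. At that level 0 of 7 Grik3 peaks and 1 of 9 Grm4 peaks were CpG-dense. The CpG density was 1.40 per 100 bp in the strongest Grm4 peak and 3.21 in that of Grik3, against 4.36 in Grm6 and 12.0 in Grin2d. None of the 36 Grik3 peaks was CpG-dense.

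**Figure D4:**
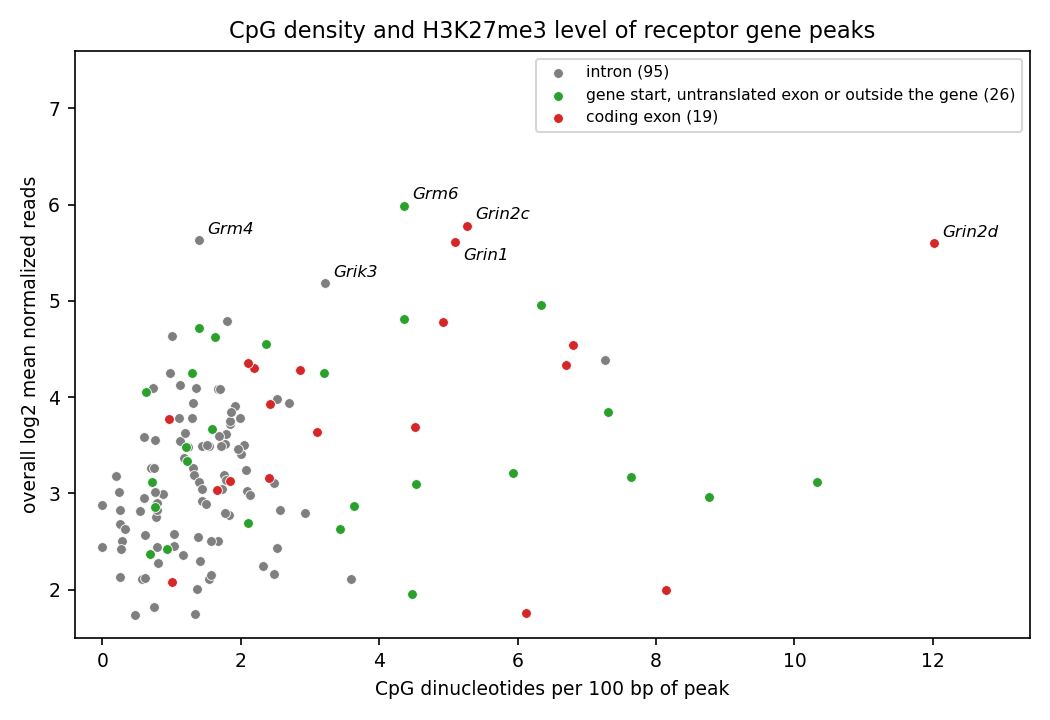
Every one of the 140 receptor gene peaks is plotted by its CpG dinucleotides per 100 bp and its overall log2 mean of normalized reads, coloured by where it lies. Of the 6 labelled peaks above an overall mean of 5, those of Grin2d, Grin2c, Grin1 and Grm6 hold 4.36 to 12.0 CpGs per 100 bp, while those of Grm4 and Grik3 are intronic and hold 1.40 and 3.21.

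Across the 140 peaks the overall mean had a Spearman correlation of 0.34 with CpG density (0.35 over all peaks) and of 0.92 with peak width (0.84 over all peaks). These are descriptions across peaks, which share the same libraries, and wider peaks collect more reads by their length. The difference between groups had a correlation of 0.15 with CpG density over the member peaks and 0.01 over all peaks. Of the 11 CpG-dense member peaks 7 had the higher knockdown mean, and of all 1844 such peaks 948 did.

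Related genes outside the set were counted in the same window. Of 12 further receptor subunit genes 6 held 16 peaks, of which 3 were lower and 3 higher by the limit of 1, against 20.6% and 20.4% of all listed peaks. Of 37 genes for auxiliary subunits, organizers and scaffolds of these receptors, 20 held 72 peaks, with 12 lower and 13 higher, to be read against the same shares. Here the strongest was at Cbln1, the cerebellin that bridges delta receptors to neurexins, at 5.81 and 5.74, followed by the postsynaptic scaffold Shank1 at 5.23 and 5.66.

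The labelled cell type was compared with marker genes by the mark within 5 kb of their starts. Peaks were listed at 2 of 6 neuronal genes (Syt1 and Rbfox3, with 11.9 summed reads in control and 13.8 in knockdown cultures), at 0 of 4 astrocyte genes, at 0 of 3 microglial genes and at 4 of 4 oligodendrocyte genes. Among the latter, Olig1 had 21.03 and 69.92 reads, Sox10 65.4 and 76.6, Olig2 224.7 and 217.0 and Mbp 6.42 and 4.87. In the wider window used for the receptor genes, 4 of 6 neuronal genes had 163.9 and 138.9 reads, the opposite direction, 1 of 4 astrocyte genes (Gfap) had 2.59 and 8.89, 1 of 3 microglial genes (Cx3cr1) had 24.3 and 13.9, and the oligodendrocyte genes had 353.5 and 423.6. A chromatin mark does not measure how many cells of each kind were present, and a smaller share of marked cells cannot be told apart from less mark per cell. The part of cell composition in the differences at receptor genes was not tested.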

How the data were processed

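H3K27me3 ChIP-seq was performed on control and NeuID knockdown primary hippocampal neurons. The authors aligned single-end reads to mm10 (bowtie2), used MACS2 for broad peaks and DiffBind for the group comparison. Their deposited table gives for each peak a log2 mean of normalized reads per group and an overall log2 mean. How reads were normalized, peaks merged, duplicates removed and input subtracted was not given in the sources used here. Its further columns hold the authors' own fold change, p-value and FDR for knockdown against control and were not used. The single libraries and their depth were not analysed here. The number of unused columns with values per sample was 0.

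Samples were grouped by their titles. Peaks were assigned to genes of GENCODE M21 with a window of 5 kb, and all coordinates are those of the deposited table. Sums are of the means on the linear scale, with a listed 0 taken as 1 read. The genome sequence of GRCm38 was used for composition, after 500 of 500 promoter sequences had matched it. Of all peaks, 26 on unplaced scaffolds had no composition value. Members described with both means were those with the strongest peaks, the strong peaks past the limit of 1, the 3 lowest and 3 highest differences and the peaks with a group at 0. Others were added after their values were seen. The members and lists were chosen with earlier results of these data known. The overlap was checked on the deposited peaks by comparing each peak with each member window directly, and the calls were tested on simulated reads. Alternatives changed the window, the level, the width, the limit, the centring and the gene assignment. Scripts ran under Python 3.11.15 with pysam 0.24.0, pandas 2.3.3 and numpy 2.4.6.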

Additional observations from a re-analysis of the deposited data

How the results depend on the processing

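No paired analysis was possible because only group means were analysed, and for the same reason no replicate could be left out. The counts of 29 lower and 26 higher member peaks, with a median difference of -0.12, held within 1.5 times (0.1 for the median) with the gene body alone, with 10 kb on each side, without peaks at 0 and after subtracting the median of all peaks. Under the other settings the counts were 16 lower and 13 higher at an overall mean of at least 3, 3 and 0 at 4 (median -0.29), 12 and 8 at a width of at least 500 bp, 16 and 12 at a limit of 2, and 12 and 8 (median -0.24) without peaks nearer to another gene start. Without Grik3 and Grm4, chosen after seeing the data, 15 of 76 peaks were lower (19.7%) and 18 higher (23.7%), and the median difference was 0.0925. For receptor families the log2 ratio of summed reads and the median of the peak differences diverged, as -0.07 and -0.51 for GABA-A, -0.08 and 0.38 for GABA-B, and -0.00138 and -0.15 for ionotropic glutamate receptors, so no direction is given for these families. Without its strongest peak GABA-B had a ratio of -0.22, and metabotropic receptors had -0.16 over peaks of at least 4. For kainate receptors the ratio was -0.18, the median -0.46 and the ratio over strong peaks, all of them in Grik3, -0.57, whereas without Grik3, a setting chosen later, the ratio was 0.22. For NMDA receptors, with the Grin1 peak included, the ratio was 0.22 and the median 0.10. The cause of these shifts was not tested. Weighting both groups equally, also added later, left the 3 lower and 0 higher strong peaks as they were. The overall mean weights control to knockdown as 6 to 5 libraries in 21925 peaks, while the labels list 6 of each.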
